A study of Mus musculus with 9 samples.

Results

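The kidney transcriptome of diabetic *db/db* mice given irbesartan was compared, gene by gene, with that of *db/db* mice given vehicle. Every probe set with a single gene symbol entered, and for a symbol with several probe sets the one with the highest mean over the 9 arrays of the series was kept, which left 22180 genes on 6 of the 9 arrays. The 3 irbesartan-treated and the 3 vehicle-treated mice were males, 10 weeks old by the series' text, and were dosed by mouth for 12 weeks. The dosing was longer than that age, so 10 weeks cannot be the age at collection. Both groups carry the leptin receptor mutation that makes *db/db* mice obese and diabetic, so a change with the drug is a change within diabetic kidneys. The 3 nondiabetic *db/m* mice entered the fit for the estimate of the spread, and their levels are given only as a reference. Each array holds the kidney RNA of a separate animal, and the hour of collection is not given in the sources used here. The methods of the study give a younger age and renal cortex where the labels give kidney.

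Irbesartan blocks the angiotensin II type 1 receptor. Angiotensin II, made from angiotensinogen by renin and angiotensin-converting enzyme, narrows the vessels that leave the glomerulus, drives sodium reabsorption along the tubule and promotes matrix deposition. The tubule that does most of the work of the kidney lives on fatty acids, ketone bodies and lactate rather than glucose, and in obesity it is exposed to an excess of lipid.

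The labelled tissue was borne out by its defining transcripts. The phosphate transporter *Slc34a1* of the proximal tubule had a mean log2 level of 12.21 with irbesartan and 12.16 with vehicle, and *Umod*, made by the thick ascending limb, had 11.83 and 11.80. Adrenal cortex markers stayed low on all 6 arrays, with *Cyp11b1* at 1.91 and 1.83. The medians over all probe sets lay between 3.404 and 3.448 on the irbesartan arrays and between 3.361 and 3.398 on the vehicle arrays, without overlap. In 2 *db/db* kidneys, markers of other cells stood apart. Irbesartan replicate 2 was high in adipocyte transcripts, and vehicle replicate 3 was high in neutrophil transcripts, and their values are given below. For some of the values that moved when these arrays were left out, but not all, the value without them is given beside it. In bulk kidney RNA, fewer cells of a type and less RNA per cell cannot be told apart.

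The drug effect was small for most of the transcriptome. Over all 22180 genes the log2 change, irbesartan minus vehicle, had a median of -0.014 and an SD of 0.193, and 95% of the genes lay between -0.373 and 0.376. Only 404 genes differed by more than 0.5 in either direction, and 33 by more than 1. A gene was called when its log2 change was past 0.5 and its Benjamini-Hochberg adjusted p in limma was under 0.25. By this rule 223 genes were called, 1.01% of those tested, with 128 higher (0.577%) and 95 lower (0.428%). No gene had a limma adjusted p under 0.05, while 2712 genes (12.2%) had an unadjusted p under 0.05. The median log2 change of the genes called higher was 0.62, and that of the genes called lower was -0.59. The 3 treated and the 3 vehicle kidneys did not overlap in 221 of the 223 called genes, against 21.8% of all genes. The calls were made on these same arrays and favour genes without overlap, so this share is not a separate check on them.

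**Figure D1:**
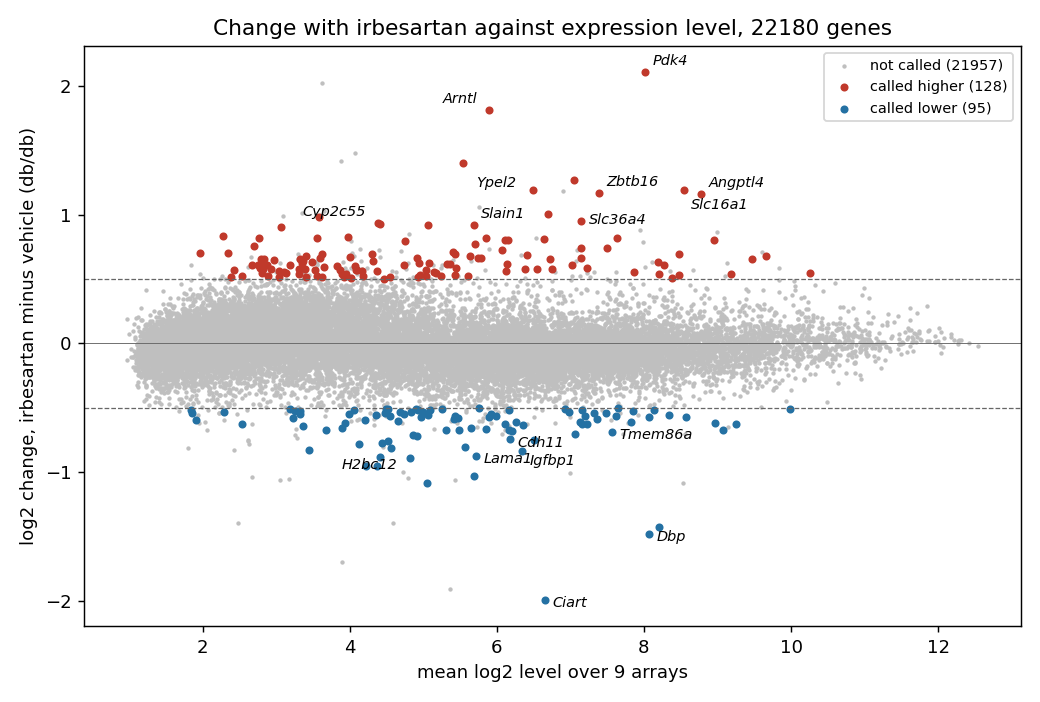
Log2 change with irbesartan (vertical axis, irbesartan minus vehicle) against the mean log2 level over 9 arrays (horizontal axis) for 22180 genes. Red and blue points are the 128 genes called higher and the 95 called lower, grey points were not called, and dashed lines mark a change of 0.5. Most genes lie within 0.4 of no change at every level.

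The balance of higher and lower calls differed between expression levels. The genes were ordered by mean log2 level and divided into 4 bands of 5545. In the lowest band 7 genes were called higher and 5 lower. In the band from 2.68 to 4.36, 51 genes were called higher and 16 lower. In the band from 4.36 to 6.55 the counts were 42 and 47, and in the highest band they were 28 and 27. The median change over all genes of these 4 bands was -0.0034, 0.07, -0.063 and -0.046. Once each array was centred on its own median, 112 genes were called higher and 205 lower, so the split between directions depended on the scaling. All 95 lower calls and 99 of the 128 higher calls kept their call with centring.

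Gene classes differed in the share called. Of 16530 named genes outside the special classes, 68 were called higher and 61 lower, or 0.78%. Of 477 pseudogenes, 19 were called higher and none lower, or 3.98%, and of 483 microRNA genes, 10 were called higher and 3 lower, or 2.69%. Only 9 of 1444 olfactory, vomeronasal and taste receptor genes were called, or 0.623%. With the circadian clock, cell cycle and ribosomal protein genes set aside, 197 of 21909 genes were called, 121 higher and 76 lower, or 0.899%. Ribosomal protein genes were recognised by symbol, so any pseudogenes of them under other symbols were not set aside. The genes described below are from these 197 unless stated otherwise.

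**Figure D2:**
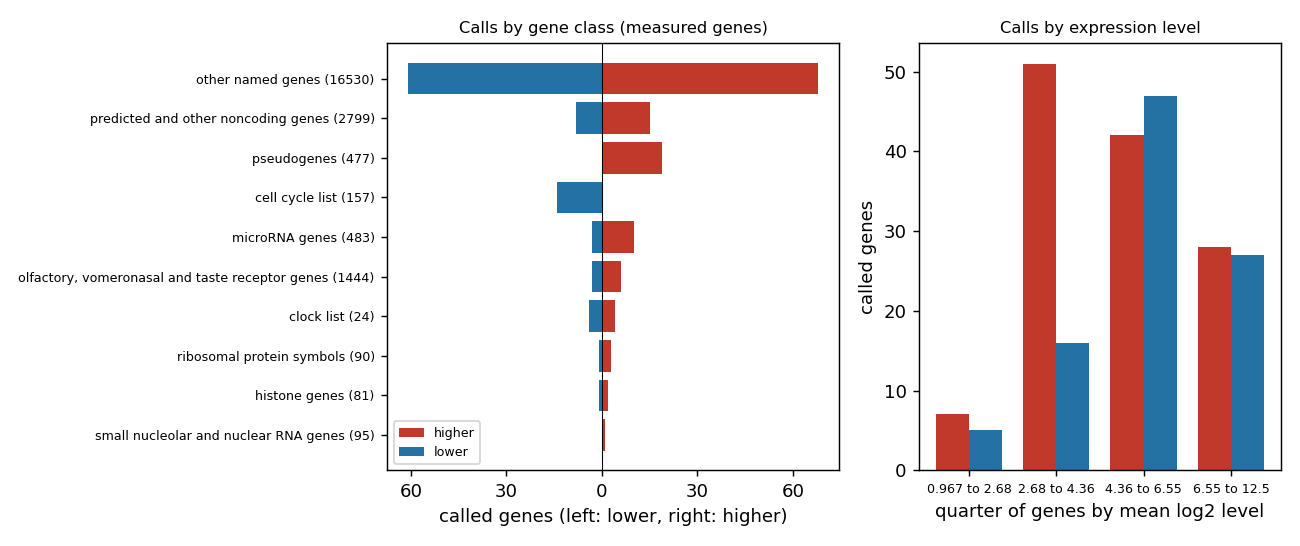
Left, the number of genes called lower (blue, to the left of 0) and higher (red, to the right) in each gene class, with the number of measured genes in brackets. Right, the number called higher and lower in each of 4 equal bands of genes by mean log2 level. All 19 called pseudogenes were higher, and in the band from 2.68 to 4.36, 51 calls were higher and 16 lower.

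The named genes are ordered by 42 lists of pathways and cell types. Lists that are described have their calls, their median change or both given, and some lists are not described. As 1.01% of all genes were called, a list of this size is likely to hold few calls or none. The absence of calls, or a single one, does not by itself set a list apart from all genes. Many list medians were small. Those of 23 lists, none past 0.079 in size, changed sign under another scaling or without some array, and no direction is read from them. The 9 lists with a median past 0.1 kept their sign in these fits. They include 3 lists not described below. These are glycolysis and hypoxia response (-0.11), inner medulla and urothelium (0.13) and erythroid markers (-0.145, only 2 measured genes).

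Fuel selection genes carried the largest change. *Pdk4*, the kinase that shuts off pyruvate dehydrogenase and so spares glucose while fat is burnt, had log2 levels of 8.67, 9.61 and 9.36 in the treated kidneys. The vehicle kidneys had 7.06, 6.14 and 8.12. The groups did not overlap, the lowest treated kidney lying above the highest vehicle kidney, and the *db/m* mean of 7.75 ± 0.80 (SD, n = 3) lay between them. *Pdk4* rose 4.30-fold, a log2 change of 2.11 (SE 0.48, limma adjusted p = 0.164), the highest of all genes.

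*Angptl4*, a secreted inhibitor of lipoprotein lipase that fasting and fatty acids induce, had log2 levels of 9.0, 9.51 and 9.35 with irbesartan and 8.07, 7.52 and 8.80 with vehicle. As with *Pdk4*, vehicle replicate 3 was the highest of its group and came closest to the treated kidneys. The log2 change of *Angptl4* was 1.16 (SE 0.28, limma adjusted p = 0.174). *Cyp4a12a*, a fatty acid omega-hydroxylase, had 6.69, 7.46 and 6.74 with irbesartan and 6.001, 6.59 and 5.87 with vehicle. Its log2 change was 0.81 (SE 0.23, limma adjusted p = 0.229), and 0.42 with irbesartan replicate 2 and vehicle replicate 3 left out, where it was not called (limma adjusted p = 0.508).

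These 3 genes were the ones called among 39 measured genes of fatty acid oxidation and of PPAR alpha, the nuclear receptor that switches on fat burning. A further 9 members reached an unadjusted limma p under 0.05 without being called, all on the higher side, and 34 of the 39 changes lay above 0. Of all genes, 5.38% were higher at that p, and 46.3% had a change above 0. The median change of the list was 0.24, against -0.014 over all genes. The groups did not overlap in 25.6% of its genes, against 21.8% of all genes. The acyl-CoA thioesterases *Acot1*, *Acot2* and *Acot3*, picked after their values were seen, had changes of 0.72, 0.62 and 0.52 but limma adjusted p of 0.353, 0.270 and 0.289. *Acot2* stood at 9.11, 9.98 and 9.46 with irbesartan and at 8.89, 8.92 and 8.88 with vehicle, so the groups did not overlap although the treated kidneys were spread widely. *Cyp4a14*, another omega-hydroxylase, had a change of 0.43, and the enzymes of the oxidation spiral *Ehhadh*, *Acadl* and *Cpt2* had 0.35, 0.27 and 0.27, none of them called.

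Irbesartan replicate 2 had the highest level of *Pdk4*, *Angptl4*, *Cyp4a12a* and the 3 thioesterases among treated kidneys. The mean log2 level of the 39 genes was 8.73 there and 8.31 and 8.38 in the other treated kidneys, against 8.13, 8.16 and 8.21 with vehicle. Without that array the median change of the list was 0.09, and without vehicle replicate 3 as well it was 0.07. *Acot1*, *Acot2*, *Acot3* and *Ehhadh* had changes of 0.41, 0.39, 0.32 and 0.18 without irbesartan replicate 2. *Pdk4* was less affected, at 1.91 without irbesartan replicate 2, 1.62 without vehicle replicate 2 and 2.41 without irbesartan replicate 2 and vehicle replicate 3.

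The adipocyte markers moved in the same kidney. *Lep*, the leptin gene, had log2 levels of 3.65, 7.15 and 3.65 with irbesartan and 3.37, 3.22 and 3.61 with vehicle. *Cidec*, a lipid droplet protein, had 3.82, 6.69 and 3.86 against 3.35, 3.30 and 3.27. Both were high in irbesartan replicate 2 alone among *db/db* kidneys, and neither was called. Of 10 measured adipocyte markers none was called, and their mean log2 level was 6.03 in irbesartan replicate 2, 4.78 and 4.79 in the other treated kidneys, and 4.63 to 4.80 with vehicle. In *db/m* replicate 2 the mean was also raised, at 5.54 against 4.71 and 4.79 in the other *db/m* kidneys. That array entered the estimate of the spread. Left without irbesartan replicate 2, *Lep* had a change of 0.25 and *Cidec* of 0.53 where all arrays gave 1.41 and 1.48. *Gpnmb*, a glycoprotein of lipid-laden macrophages named after its values were seen, behaved likewise at 8.47 in that kidney and 2.88 to 3.62 in the other *db/db* kidneys. Not all genes of adipocytes stood out as much. *Adipoq* was at 3.40 in irbesartan replicate 2 and at 2.73 and 2.72 in the other treated kidneys. *Fabp4* was at 9.66 in irbesartan replicate 2 but higher in vehicle replicate 3, at 9.81. What set irbesartan replicate 2 apart, and its part in the changes of the PPAR alpha list, was not tested.

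**Figure D3:**
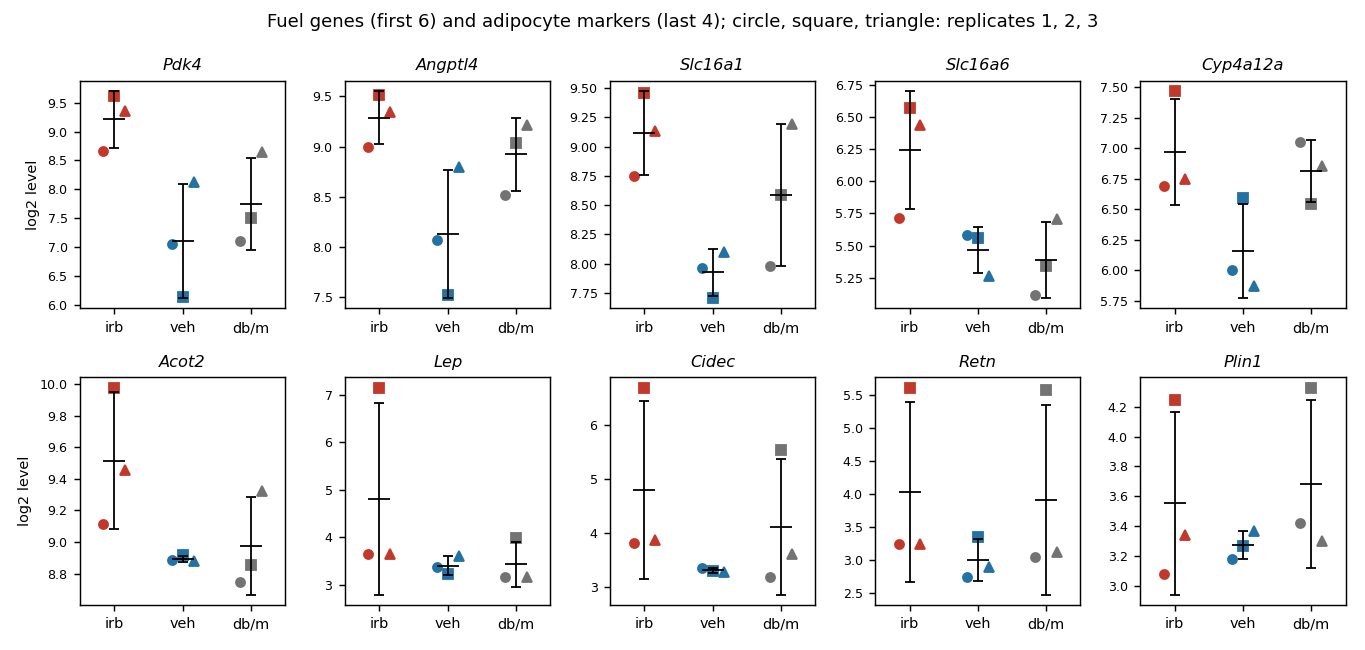
Log2 level (vertical axis) of 6 fuel genes and 4 adipocyte markers in irbesartan-treated *db/db* (irb, red), vehicle *db/db* (veh, blue) and *db/m* (grey) kidneys. Circles, squares and triangles are replicates 1, 2 and 3 of each group, lines are means and bars are SD (n = 3). *Lep* is at 7.15 in irbesartan replicate 2 and at 3.65 in both other treated kidneys, while *Pdk4* lies above the vehicle kidneys in all 3.

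Carriers of monocarboxylates were the other fuel genes called. *Slc16a1*, the proton-coupled carrier of lactate, pyruvate and ketone bodies, had log2 levels of 8.75, 9.46 and 9.13 with irbesartan and 7.97, 7.71 and 8.10 with vehicle. All treated kidneys lay above all vehicle kidneys, and the log2 change was 1.19 (SE 0.27, limma adjusted p = 0.164). *Slc16a6*, known as a ketone body exporter of zebrafish liver, had 5.72, 6.57 and 6.43 against 5.58, 5.56 and 5.26. Its log2 change was 0.77 (SE 0.21, limma adjusted p = 0.220), with irbesartan replicate 1 only slightly above the vehicle kidneys. With irbesartan replicate 2 and vehicle replicate 3 left out it was 0.50 and no longer called (limma adjusted p = 0.493), and of the 6 fits without 1 *db/db* array only that without irbesartan replicate 1 called it. *Slc16a14*, a carrier of the same family, missed the call (0.56, limma adjusted p = 0.262). The 17 measured genes of ketone body and monocarboxylate handling had a median change of -0.06, so the rest of the list did not go with the carriers.

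*Slc25a30*, an inner mitochondrial membrane carrier, was strongly expressed and varied little within groups, at 10.02, 10.07 and 10.05 with irbesartan and 9.32, 9.29 and 9.50 with vehicle. It was the only called gene of 40 measured mitochondrial carriers of its family. Of 43 measured subunits of the respiratory chain none was called, against 1.01% of all genes, and their median change was -0.04. *Txnip*, the arrestin-like protein that glucose induces and that limits glucose uptake, had 10.53, 10.70 and 10.59 against 10.13, 9.74 and 10.30, a log2 change of 0.55 (SE 0.16, limma adjusted p = 0.237). Centring each array lowered it to 0.50 and ended its call. Its relative *Arrdc3*, picked after its values were seen, had 9.003, 8.88 and 8.73 against 8.22, 8.36 and 8.44, a change of 0.53 (limma adjusted p = 0.164), and it too lost the call with centring.

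Genes of the cholesterol pathway lay below vehicle. *Stard4*, which moves cholesterol between membranes, was the only called gene of 22 measured. It had log2 levels of 5.92, 5.78 and 5.96 with irbesartan and 6.50, 6.48 and 6.57 with vehicle, a change of -0.63 (SE 0.15, limma adjusted p = 0.184). The vehicle kidneys lay within 0.1 of each other, and the treated kidneys were all lower. The list had 17 of 22 changes below 0 and a median of -0.13. Where 6.85% of all genes were lower at an unadjusted limma p under 0.05, a further 5 members were, and none was higher. These were *Fdps*, *Sqle*, *Hmgcs1* and *Msmo1*, enzymes of the pathway, and *Srebf2*, the transcription factor that drives it, with changes of -0.45, -0.50, -0.41, -0.32 and -0.31. *Fdps* had a limma adjusted p of 0.164 and missed the call on size, at 6.66, 6.68 and 6.70 with irbesartan and 6.98, 7.24 and 7.17 with vehicle. The median of the list lay between -0.18 and -0.11 whichever *db/db* array was left out, and it was -0.17 without irbesartan replicate 2 and vehicle replicate 3. The 23 measured genes of fatty acid and triglyceride synthesis had a median of 0.06 and no call.

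Basement membrane and integrin genes also lay below vehicle. *Lama1*, the laminin chain that is laid down early in nephron development, had log2 levels of 5.18, 5.10 and 5.20 with irbesartan and 5.89, 6.26 and 5.95 with vehicle. Its log2 change was -0.87 (SE 0.12, limma adjusted p = 0.0705), and it was called whichever *db/db* array was left out. *Frem2*, an extracellular matrix protein of the Fraser complex, had 4.67, 4.91 and 4.48 against 5.11, 5.28 and 5.38, a change of -0.57 (limma adjusted p = 0.229). Of 36 measured members these were the 2 called, both lower. At an unadjusted limma p under 0.05, 6 others were lower and 1 was higher, against 6.85% and 5.38% of all genes. The lower ones included the chains of collagen IV *Col4a1* (-0.42) and *Col4a2* (-0.37), the laminin chains *Lamc1* (-0.34) and *Lamb1* (-0.26), and the integrin *Itgb6* (-0.46). *Col4a6*, a collagen IV chain of another network, had a change of 0.27. *Col4a1* stood at 5.42, 5.66 and 5.27 with irbesartan and at 5.89, 5.75 and 5.96 with vehicle, so all treated kidneys were lower but by less than the size needed for a call. The median of the list was -0.16, between -0.18 and -0.12 over the fits without 1 *db/db* array and -0.13 without irbesartan replicate 2 and vehicle replicate 3. In 41.7% of its genes the groups did not overlap, against 21.8% of all genes.

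Interstitial matrix genes were more mixed. *Cdh11*, the cadherin of mesenchymal and matrix-forming cells, had log2 levels of 5.81, 5.72 and 5.64 with irbesartan and 6.57, 6.42 and 6.43 with vehicle, and a log2 change of -0.74 (SE 0.11, limma adjusted p = 0.0705). The remaining 31 of 32 measured genes were not called. *Col3a1*, a fibrillar collagen, had a change of 0.41 in the other direction, and 0.20 without irbesartan replicate 2 and vehicle replicate 3. The list median was -0.06, and it was -0.19 without irbesartan replicate 2 and 0.02 without vehicle replicate 3. Pericyte and smooth muscle markers had a median of -0.13 over 19 genes with no call, led by *Mcam* at -0.36 (limma adjusted p = 0.229). The groups did not overlap in 10.5% of these markers, against 21.8% of all genes. The TGF-beta receptor *Tgfbr2* had a change of -0.44 (limma adjusted p = 0.135) and missed the call on size, and its list had a median of 0.03 over 38 genes. *Nepn*, a small leucine-rich proteoglycan known to inhibit TGF-beta, had a log2 change of -0.75 (SE 0.17, limma adjusted p = 0.164). Without irbesartan replicate 2 and vehicle replicate 3 the change of *Nepn* was -0.51 and not called (limma adjusted p = 0.265). *Pdgfc*, a growth factor for mesenchymal cells picked after its values were seen, fell by 0.56 (limma adjusted p = 0.164), and without vehicle replicate 3 and irbesartan replicate 2 its change was -0.42.

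**Figure D4:**
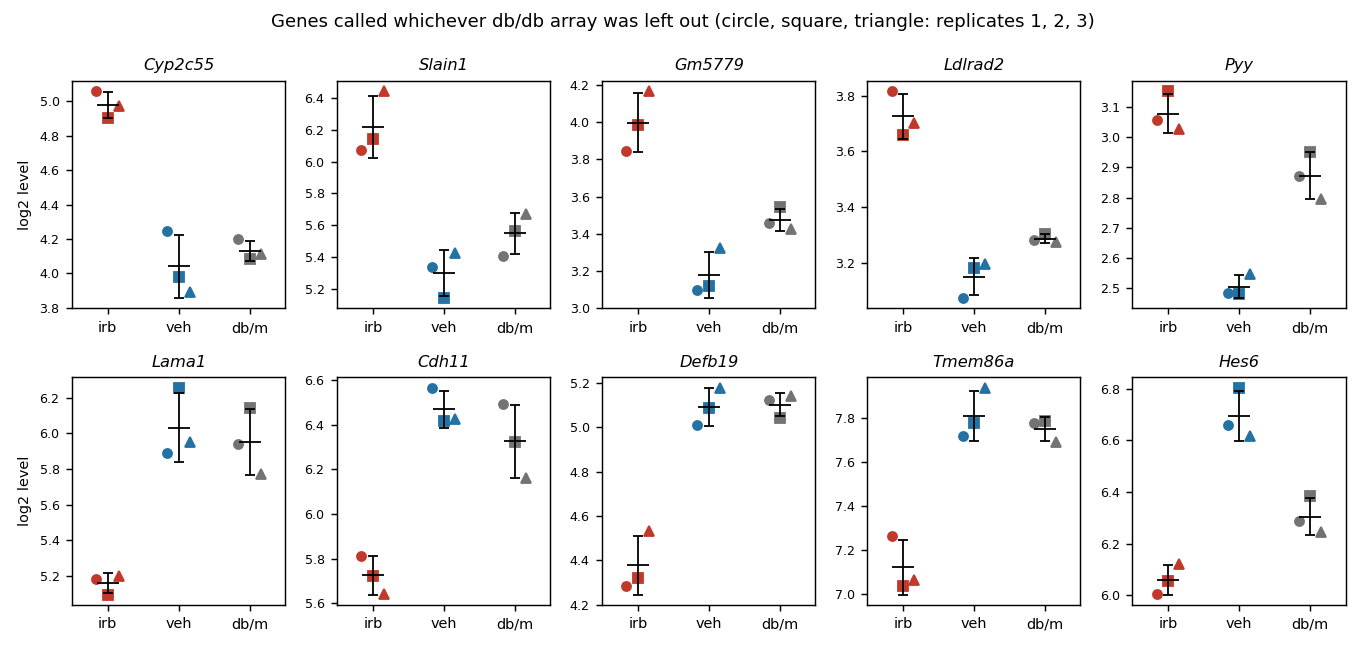
Log2 level (vertical axis) of the 10 genes outside the clock, cell cycle and ribosomal protein groups that were called whichever *db/db* array was left out. Circles, squares and triangles are replicates 1, 2 and 3 of irbesartan-treated *db/db* (irb, red), vehicle *db/db* (veh, blue) and *db/m* (grey) kidneys, with means and SD (n = 3). *Cyp2c55*, *Slain1*, *Gm5779*, *Ldlrad2* and *Pyy* are higher and *Lama1*, *Cdh11*, *Defb19*, *Tmem86a* and *Hes6* lower with irbesartan.

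Few calls held in every fit without 1 *db/db* array. Without vehicle replicate 2, irbesartan replicate 1 or irbesartan replicate 3, only 30, 32 and 20 genes were called, whereas 336 were called without vehicle replicate 3. Of the 197 called genes, 10 were called in all 6 such fits, 7 in 5 and 20 in none, while 102 kept a change past 0.5 in the same direction in all 6. *Pdk4*, *Angptl4* and *Slc16a1* were called in 1 of the 6 fits, the one without vehicle replicate 3, and *Stard4*, *Frem2*, *Cyp4a12a*, *Igfbp1*, *Ifit2* and *Gstp2* in none.

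The 10 genes have unlike known functions. *Cyp2c55*, a cytochrome P450 that makes hydroxylated arachidonic acid, was at 5.06, 4.90 and 4.97 with irbesartan and 4.25, 3.98 and 3.89 with vehicle, and its limma adjusted p of 0.0561 was the lowest of all genes. A second probe set of *Cyp2c55* with a mean level of 1.79 had a change of -0.23. *Slain1*, a microtubule plus-end protein, was at 6.07, 6.14 and 6.44 against 5.34, 5.14 and 5.42, a change of 0.92, and its second probe set at a level of 4.88 had -0.10. With the mean over probe sets the change of *Cyp2c55* was 0.35 and that of *Slain1* 0.41, and both lost their call. *Pyy*, the gut hormone peptide YY, was at 3.06, 3.15 and 3.03 against 2.48, 2.48 and 2.55, and *Ldlrad2*, a protein with a lipoprotein receptor domain, at 3.82, 3.66 and 3.70 against 3.07, 3.18 and 3.20. Both were near the median level of all probe sets, 3.39. *Tmem86a*, the enzyme that degrades lysoplasmalogens, was well expressed at 7.27, 7.04 and 7.07 against 7.72, 7.78 and 7.94, a change of -0.69 (SE 0.10, limma adjusted p = 0.0705). *Hes6*, a transcription factor of the Hes family, was at 6.01, 6.06 and 6.12 against 6.66, 6.80 and 6.62, a change of -0.63. *Defb19*, a defensin, fell from 5.01, 5.09 and 5.18 to 4.29, 4.32 and 4.53.

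Genes regulated by glucocorticoids included 1 call. *Zbtb16*, a zinc finger repressor that glucocorticoids strongly induce, had log2 levels of 8.06, 7.78 and 7.90 with irbesartan and 6.71, 6.37 and 7.15 with vehicle. Its log2 change was 1.17 (SE 0.20, limma adjusted p = 0.0906), and the *db/m* mean of 7.50 ± 0.34 (SD, n = 3) lay between the 2 groups. Of 26 measured genes of the list, 5 including *Zbtb16* were higher and none lower at an unadjusted limma p under 0.05. Of all genes, 5.38% were higher and 6.85% lower at that p. Over the whole list 16 changes lay above 0 and 10 below, the lowest being -0.67. The metallothioneins *Mt1* and *Mt2*, metal-binding proteins, had changes of 0.29 and 0.31 and the salt-regulating kinase *Sgk1* had 0.53, none of them called. *Fkbp5*, one of the most responsive genes of the list in other tissues, had a change of 0.38 (limma adjusted p = 0.526) and *Tsc22d3* of 0.24. The list median was 0.07, and it was 0.02 with centring. Without vehicle replicate 3 *Fkbp5* had a change of 0.63, still not called (limma adjusted p = 0.266), and the list median was 0.16.

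The renin-angiotensin genes themselves showed no call among 16 measured, a count that the share of 1.01% over all genes does not set apart. *Agtr1a*, the receptor that irbesartan blocks, had log2 levels of 9.39, 9.31 and 9.41 with irbesartan and 9.58, 9.54 and 9.35 with vehicle, a difference of -0.12 (SE 0.10). The groups overlapped. *Agt* and *Ace* differed by -0.02 (SE 0.17) and 0.04 (SE 0.14), and *Agtr1b* and *Agtr2* were near the lowest levels of the arrays, at means of 2.59 and 1.89 with irbesartan. *Hsd11b2*, which protects the mineralocorticoid receptor from glucocorticoids, had the largest moderated statistic of the list. Its change was 0.25 (limma adjusted p = 0.375). The list median was 0.01, and it was -0.04 with centring. Genes for renin and the second converting enzyme are not analysed here. No probe set carried the renin gene *Ren1* as its single symbol. The study lists *Ren1* among its leading changed genes, so the absence of calls holds only for the genes measured here. Of 30 measured genes of distal sodium transport none was called, and their median was 0.03.

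Transport and metabolism genes of the tubule gave single calls in both directions. *Slc17a4*, an organic anion and urate transporter, was at 4.15, 3.68 and 3.97 with irbesartan and 4.95, 4.55 and 4.72 with vehicle, a change of -0.81 (SE 0.15, limma adjusted p = 0.123), and of the fits without 1 *db/db* array only that without irbesartan replicate 3 lost the call. *Slc22a28*, of the organic anion transporter family, fell by 0.62 (limma adjusted p = 0.193). They were the 2 called of 43 measured organic ion and ABC transporters. *Slc36a4*, a tryptophan and proline transporter, was at 7.79, 7.77 and 8.15 against 7.41, 6.41 and 7.03, a change of 0.96 (limma adjusted p = 0.164), though a second probe set at a level of 6.10 had -0.04. *Slc39a10*, a zinc importer, was at 5.59, 5.60 and 5.80 against 6.35, 6.19 and 6.49, a change of -0.68 (limma adjusted p = 0.0722), and of those fits only that without irbesartan replicate 1 lost the call. *Mtarc1*, a mitochondrial reductase linked to liver fat in people, was at 6.77, 6.97 and 6.78 against 6.04, 6.40 and 5.62. The *db/m* kidneys had 4.71 ± 0.22 (SD, n = 3). The change of *Mtarc1* was 0.82. Without irbesartan replicate 2 and vehicle replicate 3 it was 0.56 and not called (limma adjusted p = 0.315). *Gstp2*, a glutathione transferase, rose by 0.74 (limma adjusted p = 0.236). Sugar handling gave no call, with the glucose transporters *Slc2a2* and *Slc5a2* at -0.31 and -0.23 and the gluconeogenic enzyme *Pck1* at 0.27.

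Among growth and signalling genes, *Ypel2*, a nuclear protein of the yippee family, had 6.98, 7.27 and 7.01 with irbesartan and 5.77, 6.07 and 5.85 with vehicle. Its log2 change of 1.19 (SE 0.19, limma adjusted p = 0.0722) was called in 5 of the 6 fits without 1 array, the exception being irbesartan replicate 3. *Wsb1*, a substrate receptor of a ubiquitin ligase, had 7.19, 7.80 and 7.32 against 6.43, 6.40 and 6.46, a change of 1.004 (limma adjusted p = 0.104). *Rasl11a*, a small GTPase, had 6.85, 6.75 and 6.84 against 6.15, 6.03 and 6.20, 3 kidneys on each side with almost no spread. *Thbs4*, a thrombospondin of the extracellular matrix, rose by 0.83 (SE 0.17, limma adjusted p = 0.147). *Igfbp1*, the insulin-repressed binding protein of insulin-like growth factors, was at 6.16, 5.86 and 5.64 with irbesartan and 6.54, 6.98 and 6.64 with vehicle, a change of -0.84 (SE 0.24, limma adjusted p = 0.222). *Igfbp5*, the most changed relative of *Igfbp1* by its statistic, had -0.49 (limma adjusted p = 0.149) and just missed the size for a call. Insulin and insulin-like growth factor genes had a median of 0.01 over 26 members, which was -0.05 with centring.

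**Figure D5:**
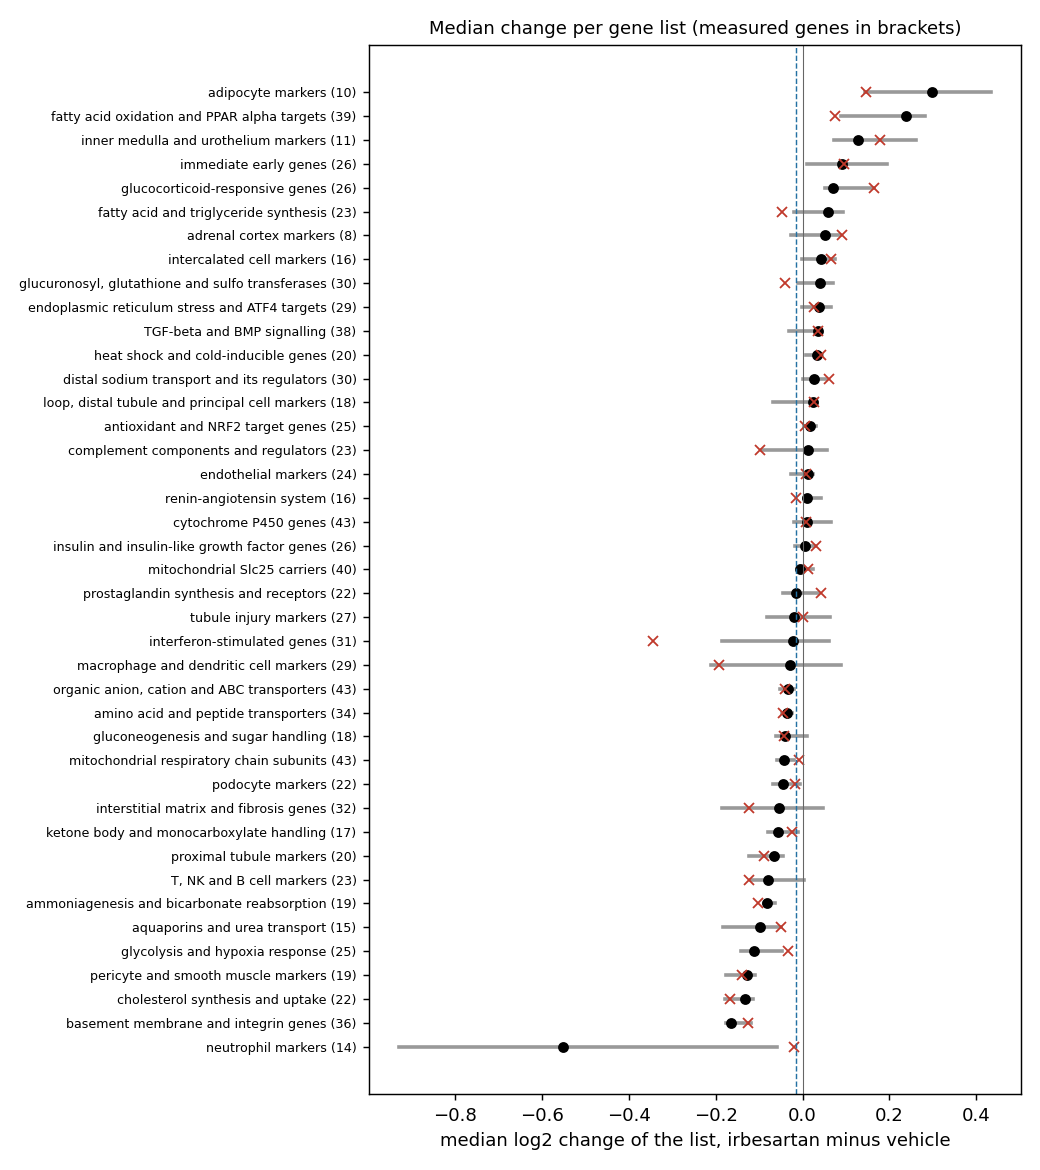
Median log2 change, irbesartan minus vehicle, of each gene list (horizontal axis), with the number of measured genes in brackets. The clock, cell cycle and erythroid lists are not drawn. Points are medians over all arrays, grey lines span the 6 fits without 1 *db/db* array, crosses leave out irbesartan replicate 2 and vehicle replicate 3 together, and the dashed line is the median of all genes, -0.014. The neutrophil list moves from -0.55 to -0.02 when the 2 arrays are left out, while the basement membrane and cholesterol lists stay below -0.1.

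Immune transcripts gave few calls. *Il15*, a cytokine that sustains natural killer and T cells, was at 5.76, 5.70 and 5.94 with irbesartan and 6.34, 6.60 and 6.49 with vehicle, a change of -0.68 (SE 0.13, limma adjusted p = 0.123). *Tnfsf15*, a cytokine of the tumour necrosis factor family, fell by 0.67 (limma adjusted p = 0.147), and *Ptpn22*, a phosphatase that restrains lymphocyte receptors, fell by 0.72 (limma adjusted p = 0.193). *Clec4a3*, a lectin receptor of myeloid cells, had 3.90, 4.38 and 3.42 against 4.54, 4.77 and 4.71, and a change of -0.77. Its change was -0.997 without irbesartan replicate 2 and vehicle replicate 3. *Ifit2*, an interferon-induced gene, was the only call of 31 in its list, at 4.32, 4.37 and 4.25 against 4.84, 4.86 and 4.85. The interferon list had a median of -0.02 with all arrays and of -0.35 without irbesartan replicate 2 and vehicle replicate 3. None of 29 macrophage and dendritic cell markers was called, where 1.01% of all genes were, so this count says little about these cells. None of them had groups that did not overlap, against 21.8% of all genes.

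Neutrophil genes had some of the largest negative differences that were not called. *Retnlg* was at 3.71, 3.20 and 3.09 with irbesartan and 3.01, 3.83 and 8.26 with vehicle, and *S100a8* at 2.28, 2.04 and 1.78 against 2.05, 2.16 and 6.08. Both were high in vehicle replicate 3 alone. Their differences were -1.70 and -1.40 with all arrays and -0.02 and -0.07 without that kidney and irbesartan replicate 2. Of 14 neutrophil markers none was called, and their mean log2 level was 4.93 in vehicle replicate 3 and 2.96 to 3.15 in the other *db/db* kidneys. *Epo*, the erythropoietin gene named after its values were seen, was at 8.97 in the same kidney and 3.40 to 4.25 in the others.

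Among tubule cell genes, *Krt8*, a keratin of simple epithelia that rises in injured tubules, was at 8.35, 8.19 and 8.21 with irbesartan and 8.70, 8.92 and 8.85 with vehicle. It was the only call of 27 injury markers, whose median was -0.02. At an unadjusted limma p under 0.05, 3 of these markers were higher and 2 lower, and the highest change was 0.88. No change in injury is read from *Krt8* alone. *Foxi1*, the master regulator of intercalated cells, was at 8.19, 8.25 and 8.18 against 7.82, 7.71 and 7.42, the only call of 16 markers of these cells, whose median was 0.04. Podocyte and endothelial markers had no call, with medians of -0.04 over 22 and 0.01 over 24 genes. Proximal tubule markers had a median of -0.07 over 20 genes, with no call.

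MicroRNA genes had 13 calls. For 5 of them the mature sequences from RefSeq (GRCm38.p6) are shown, 5′ to 3′, because the seed, bases 2 to 8 in capitals, sets which messages a microRNA can pair with.
miR-1954: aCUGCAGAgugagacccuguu
miR-181a-5p: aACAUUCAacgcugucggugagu
miR-99b-5p: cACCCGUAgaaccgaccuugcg
miR-132-3p: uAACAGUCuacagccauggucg
miR-7a-5p: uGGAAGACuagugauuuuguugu
These 5 have 5 different seeds. *Mir1954*, on chromosome 2, had log2 levels of 6.04, 5.72 and 5.94 with irbesartan and 5.54, 4.81 and 5.21 with vehicle, a change of 0.71 (limma adjusted p = 0.165). *Mir181a-2*, also on chromosome 2, had 4.29, 3.90 and 4.21 against 3.42, 3.17 and 3.72, a change of 0.70 (limma adjusted p = 0.165). *Mir99b*, on chromosome 17 and named after its values were seen, had 6.12, 5.89 and 6.21 against 5.26, 5.50 and 5.47, a change of 0.67 with the lowest limma adjusted p of the 13, 0.0722. In all 3 the treated kidneys lay above the vehicle kidneys. The highest change, 0.98, was that of *Mir124a-2*, the gene of a brain-enriched microRNA.

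*Mir7-1*, on chromosome 13, was lower at 3.78, 3.80 and 3.96 against 4.23, 4.38 and 4.70, a change of -0.59 (limma adjusted p = 0.206). *Mir132*, on chromosome 11, was lower at 2.09, 1.99 and 1.96 against 2.57, 2.45 and 2.61, and *Mir145a*, of smooth muscle, at 1.92, 1.56 and 1.74 against 2.25, 2.41 and 2.34. The last 2 had levels in the lowest band of genes by level, and no fit without 1 *db/db* array called them. Of the 13 genes, 11 had a mature sequence in the table. The labelled RNA was whole-transcript target, and whether these probe sets read the mature microRNA, its hairpin or the host transcript was not tested.

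Among predicted genes and pseudogenes, all 19 called pseudogenes were higher. *Gm16519* was at 5.69, 5.62 and 5.49 with irbesartan and 5.07, 4.40 and 4.58 with vehicle, a change of 0.92 (limma adjusted p = 0.0722). The study names *Gm16519* among its hub genes, a list that also holds ribosomal protein genes. *Gm13034*, near the bottom of the range, was at 2.68, 2.82 and 3.10 against 2.43, 2.16 and 1.501. *Gm5451*, at a much higher level, was at 9.62, 9.33 and 9.73 against 9.38, 8.31 and 8.58. Vehicle replicate 1 overlapped the treated kidneys in *Gm5451*. *4833420G17Rik*, a gene without a function assigned in the files, was the lowest of this kind at 4.80, 5.06 and 5.80 against 6.12, 6.63 and 5.996, a change of -1.03 (limma adjusted p = 0.185). *2310081J21Rik*, a long noncoding RNA, was at 5.57, 5.01 and 5.24 against 5.82, 6.02 and 5.95, and all treated kidneys were lower. Probe sets of pseudogenes can read their parent genes as well, and the 2 cannot be separated with these values.

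Promoters, taken from 250 bases before to 50 bases after the start of each gene, were searched on both strands for 3 motifs. CACGTG, the E-box bound by clock and Myc family proteins, was found in 5 of 68 protein-coding genes called higher (7.35%) and 4 of 50 called lower (8%), against 9.37% of 15173 measured genes. TGTTTAC, the forkhead motif, was found in 5 of 68 (7.35%) and 3 of 50 (6%), against 3.47%, and *Txnip* was among them. TCACNCCAC, the core of the sterol regulatory element, was found in 2 of 68 (2.94%) and 0 of 50, against 1.43%. No matches to 2 motifs overlapped. Among the called genes past a change of 1, *Slc16a1* and *Wsb1* held the E-box, and the windows around it are shown from RefSeq (GRCm38.p6) with the motif in capitals, in the direction of the gene.
*Slc16a1*, chr3:104638437-104638496, plus strand: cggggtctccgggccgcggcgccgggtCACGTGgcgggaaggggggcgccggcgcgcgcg
*Wsb1*, chr11:79254882-79254941, minus strand: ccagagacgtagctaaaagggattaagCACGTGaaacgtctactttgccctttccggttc
The motif lay 200 to 195 bases upstream of the start of *Slc16a1*, and 219 to 214 bases upstream of that of *Wsb1*, which held a second one 183 to 178 bases upstream.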

How the data were processed

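Kidney RNA of 9 mice, 3 per group, was hybridized to whole-transcript Affymetrix mouse arrays. The authors ran RMA in Affymetrix Expression Console, and the log2 value they deposited for each probe set was used unchanged. Gene symbols came from the annotation of the array. Of 41345 probe sets, 23521 carried 1 symbol, 1820 several and 16004 none. The last 2 kinds entered only an alternative on every probe set. No filter on low values was applied, and the number of arrays limits the precision.

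A linear model with a mean for each of the 3 groups was fitted to all 9 arrays (limma 3.58.1, R 4.3.3, 6 residual degrees of freedom), for irbesartan minus vehicle in *db/db* mice, with Benjamini-Hochberg adjustment over 22180 genes. The one-way analysis of variance of the methods was an alternative, and their fold change condition, printed with the opposite inequality, was read as a lower bound. Values are log2 levels per array, means ± SD, and changes with the SE of the fit. The fit was tested on simulated data.

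The gene lists were written from textbook knowledge, and they and the genes described were chosen with earlier results of these data known. Outside the clock, cell cycle and ribosomal protein genes, genes were named when they had 1 of the 20 highest or 20 lowest changes among called genes whose groups did not overlap, when they were called in all 6 fits without 1 *db/db* array, called members of a list, the member with the largest moderated statistic of a list with no call, renin-angiotensin genes, or leading genes of the study. Of the genes this rule gives, those most informative of each group are printed. Predicted and small RNA genes were named for the 3 highest and 3 lowest called. Other list members that were not called, other microRNA genes and pseudogenes, *Arrdc3*, *Pdgfc*, *Gpnmb* and *Epo* were picked after their values were seen. The replicate numbers shared by the groups are only numbers, and no pairing was used. Figures were drawn with matplotlib 3.10.9 (Python 3.11.15).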

Additional observations from a re-analysis of the deposited data

How the results depend on the processing

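Of the processing alternatives, some moved the number of called genes by less than 1.5 times from 223. It was 317 with each array centred on its median, 178 after a second quantile normalization, 274 with the 6 *db/db* arrays alone, 225 of 13962 genes above a mean level of 3.39, and 209 with probe sets averaged per gene. Others moved it further, to 131 over every probe set, 364 with array weights and 143 with the replicate number as a block. The analysis of variance without moderation called 0 genes, with 2916 at an unadjusted p under 0.05, where limma called 223 with 2712. The same-numbered arrays correlated at -0.0448, 0.0112 and -0.0137 in their deviations from the group means, so the block follows numbers only.

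Leaving out 1 *db/db* array gave between 20 and 336 calls. Leaving out 1 *db/m* array, chosen after seeing the data, gave between 196 and 289. Leaving out irbesartan replicate 2 and vehicle replicate 3 together, also chosen after seeing the data, gave 294 calls, of which 109 were among the 223. The causes were not tested. The share of higher calls was 57.4%, and 35.3% with centring, 51.2%, 46.7% and 49.7% without vehicle replicates 1, 2 and 3, and 40% without irbesartan replicate 3.

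No gene named in the text that was called changed direction under these alternatives. Of the 42 list medians, 23 changed sign under at least 1 of them, the largest of these being 0.079 in size.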
